A study of Mus musculus with 10 samples.

Results

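The genes described here are 37 of the 24368 genes in the table. They are hydrolases and membrane proteins of the lysosome, and 3 transcription factors of the TFEB family. The members were chosen by gene symbol, with earlier results of the same cKO against WT comparison known, so their differences between the groups are a description of these libraries and not a test of the list. They fall into 3 transcription factors, 11 genes of lipid and sphingolipid breakdown, 8 of sugar chain breakdown, 7 proteases or protease-linked proteins, and 8 membrane proteins including a channel and subunits of the proton pump.

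The libraries came from total RNA of mouse proximal jejunum, the upper part of the small intestine where most dietary fat is absorbed. There were 5 mice labelled WT and 5 littermates labelled cKO, a deletion of HuR limited by design to the intestinal epithelium, with 1 library per mouse. HuR, encoded by Elavl1, is an RNA-binding protein that binds AU-rich stretches of many mRNAs. The driver of the deletion, the strain, age, sex and diet of the mice and the hour of collection are not named in the sources used here. The study was set up to ask what HuR does in fat absorption by the intestine.

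All values are normalised read counts, which are reads divided by 1 size factor per library, and differences are cKO minus WT on the log2(value + 1) scale. The recovered reads ranged from 16063987 in cKO 1 to 18927440 in cKO 5. Markers of absorptive enterocytes, which do not tell jejunum from other small intestine, were abundant, with a summed level over 12 genes of 1166163 to 1329256 in WT and 794945 to 1582074 in cKO. Elavl1 itself was at 666 ± 35.97 in the WT libraries and 633 ± 60.6 in the cKO libraries (SD over 5 each), with a limma adjusted p of 0.798. cKO 1, at 725, was above the highest WT library, at 709. The Elavl1 values thus do not show the deletion, and WT and cKO below stand for the libraries so labelled. The tissue also holds cells outside the epithelium, and the sources used here do not say which part of Elavl1 was deleted. Some libraries stood apart from the rest. Per2, a clock gene, was at 12.7 in cKO 3 and 16.03 in cKO 5 against 342 to 749 in the other 8 libraries. Mitochondrial genes took 9.48% of the normalised reads in cKO 1, the most of the 10 libraries, against 2.69% in WT 5, the least.

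Lysosomes are acidic organelles in which hydrolases break down proteins, lipids and sugar chains that arrive by endocytosis or autophagy. In enterocytes they receive material taken up from the gut lumen, and they can also degrade stored lipid droplets. TFEB, TFE3 and MITF are related transcription factors that switch on many lysosomal and autophagy genes by binding short promoter sites with the core CACGTG. The kinase mTORC1 phosphorylates TFEB at the lysosome surface when nutrients are plentiful and so holds it in the cytosol. The activity of TFEB therefore depends on where the protein sits as well as on its mRNA.

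Promoter stretches of most members that hold this core are shown first, because the core is a sequence that TFEB family proteins read. They come from the RefSeq promoter table of build GRCm38.p6, and 32 of the 37 members have a window of 300 bases there (250 before and 50 after the start site). Asah1, Atp6v1h, Ctsb, Galns and Npc1 are the members not in it. Capitals mark each match to CACGTG, extended to TCACGTG or TCACGTGA where the flanking letters fit. The next 7 stretches are the 120 bases just before the start site. Lipa and Tfeb are given for contrast: they hold no core, like most members with a window. Both are among the members called lower by limma below.
Arsa, chr15:89477425-89477544, reverse strand: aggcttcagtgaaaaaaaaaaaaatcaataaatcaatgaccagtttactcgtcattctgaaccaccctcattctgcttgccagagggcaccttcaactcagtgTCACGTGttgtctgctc
Lamp1, chr8:13159041-13159160, forward strand: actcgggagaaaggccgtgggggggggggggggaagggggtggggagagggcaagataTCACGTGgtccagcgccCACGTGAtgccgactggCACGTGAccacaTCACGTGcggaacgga
Mcoln1, chr8:3500399-3500518, forward strand: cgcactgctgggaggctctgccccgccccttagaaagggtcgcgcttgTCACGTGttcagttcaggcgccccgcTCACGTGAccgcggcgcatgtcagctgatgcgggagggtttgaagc
Ctsd, chr7:142387828-142387947, reverse strand: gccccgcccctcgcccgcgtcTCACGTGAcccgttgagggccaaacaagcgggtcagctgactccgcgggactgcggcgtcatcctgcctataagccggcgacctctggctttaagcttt
Naglu, chr11:101069974-101070093, forward strand: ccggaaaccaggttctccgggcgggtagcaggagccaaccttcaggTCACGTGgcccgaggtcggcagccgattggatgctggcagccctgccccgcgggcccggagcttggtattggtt
Lipa, chr19:34527475-34527594, reverse strand: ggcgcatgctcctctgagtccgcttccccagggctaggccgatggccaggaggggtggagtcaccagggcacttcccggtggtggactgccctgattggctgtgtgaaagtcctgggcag
Tfeb, chr17:47736917-47737036, forward strand: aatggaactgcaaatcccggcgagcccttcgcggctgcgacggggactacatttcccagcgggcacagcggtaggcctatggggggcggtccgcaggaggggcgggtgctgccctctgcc
In 4 other members the first core lies at or near the start site or further upstream, and 40 bases around it are shown. The second match of Ctsa is TCACGTGA in the full window and is cut at the end of its stretch.
Ctsa, chr2:164833744-164833783, forward strand: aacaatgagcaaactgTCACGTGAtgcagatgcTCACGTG
Atp6v0d1, chr8:105566045-105566084, reverse strand: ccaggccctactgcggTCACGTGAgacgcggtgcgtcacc
Gla, chrX:134601210-134601249, reverse strand: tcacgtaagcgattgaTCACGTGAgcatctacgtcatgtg
Glb1, chr9:114401013-114401052, forward strand: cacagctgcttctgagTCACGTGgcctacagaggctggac
Arsa has 1 core, which begins 16 bases before the start site. Lamp1 has 4, which begin 61, 45, 28 and 15 bases before it, more than any other member window. In Mcoln1 the cores begin 71 and 45 bases before the start site, and in Ctsd 245 and 98 bases before it. Naglu has 1 core at 73 bases, Glb1 1 at 48 bases and Sgsh 1 at 29 bases before the start site. Ctsl has 1 at 236 bases before it, and the stretches of Ctsl and Sgsh are not shown. No core lies in any of the 3 windows of Tfeb, the 2 of Tfe3 or the 3 of Mitf.

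Searched on both strands, TCACGTG was present in 10 of the 32 members with a window (31.3%) and in 700 of 10336 tested genes with a window (6.77%). The shorter CACGTG, which TCACGTG contains, was present in 11 members (34.4%) and 11.4% of the tested genes. The longer TCACGTGA, which contains both, was present in 5 members (15.6%) and 2.07%. By role, TCACGTG was in 3 of 9 genes of lipid breakdown, 2 of 7 of sugar chain breakdown, 2 of 6 proteases and 3 of 7 membrane proteins. Of the 9 members with a window and a lower cKO value at an unadjusted limma p under 0.05, 4 held TCACGTG (44.4%), as did 6 of the other 23 (26.1%). That split rests on p-values of these same libraries, so these shares are a description and not a test. A match is a description of the sequence. It says nothing of binding in these mice, nor of which protein, of the TFEB family or not, would bind there.

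**Figure D1:**
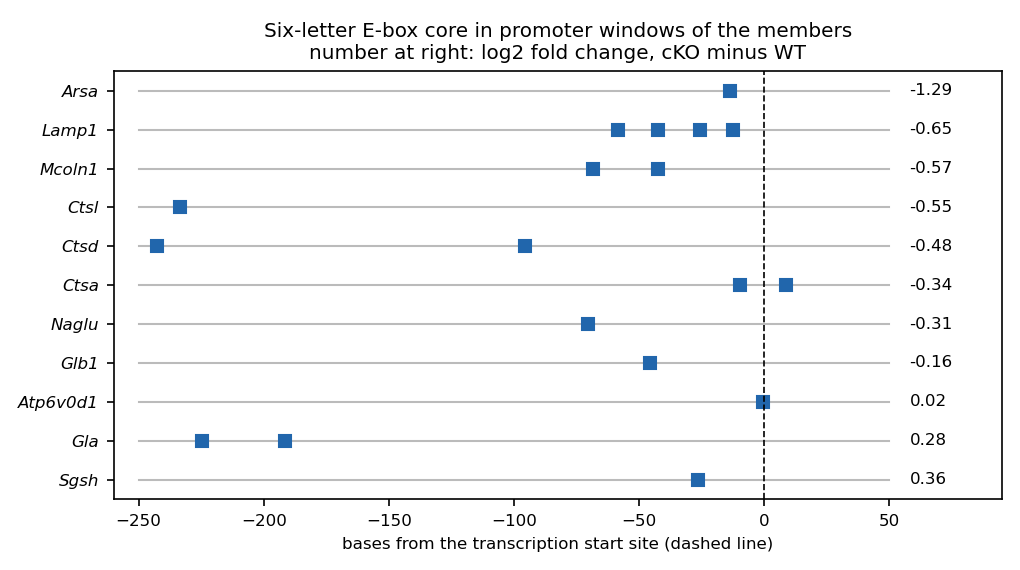
Position of each CACGTG core in the promoter windows of the members that hold one. The x axis is the distance in bases from the start site and each row is 1 member, with its log2 difference between cKO and WT at the right. The 4 cores of Lamp1 all lie within 61 bases before the start site.

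The members' levels differed widely within a library. Per kilobase of gene length in the deposited table, the WT mean was 3819 for Lamp1, 2706 for Ctsz and 2233 for Ctss, and 3.26 for Mitf, 4.35 for Arsb and 4.98 for Sgsh. All 37 members passed the filter, a mean over the libraries of at least 10.

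Arsa, Tfeb and Lipa were lower in the cKO jejunum, by 2.45-fold, 2.37-fold and 1.83-fold. They were the only members with a limma adjusted p under 0.05, and no member was called higher. That is 3 of 37 (8.11%), where limma called 1.32% of the 14062 genes tested in either direction and 0.882% as lower. The main split over all genes was 62 higher and 124 lower, and 69 higher and 76 lower when the libraries were scaled to equal totals. Because the list was put together with this comparison known, nothing is read from the excess. The median difference over the 37 members was -0.17, with 27 below 0 and 10 above, and the median over all tested genes was 0.010. At an unadjusted limma p under 0.05, 11 members were lower (29.7%, against 10.1% of all tested genes) and 0 were higher (against 8.46%). In either direction 2609 of the 14062 tested genes had such a p, which is the count to set beside those by role and list below. In these bulk samples fewer cells of a type and less RNA per cell cannot be told apart.

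**Figure D2:**
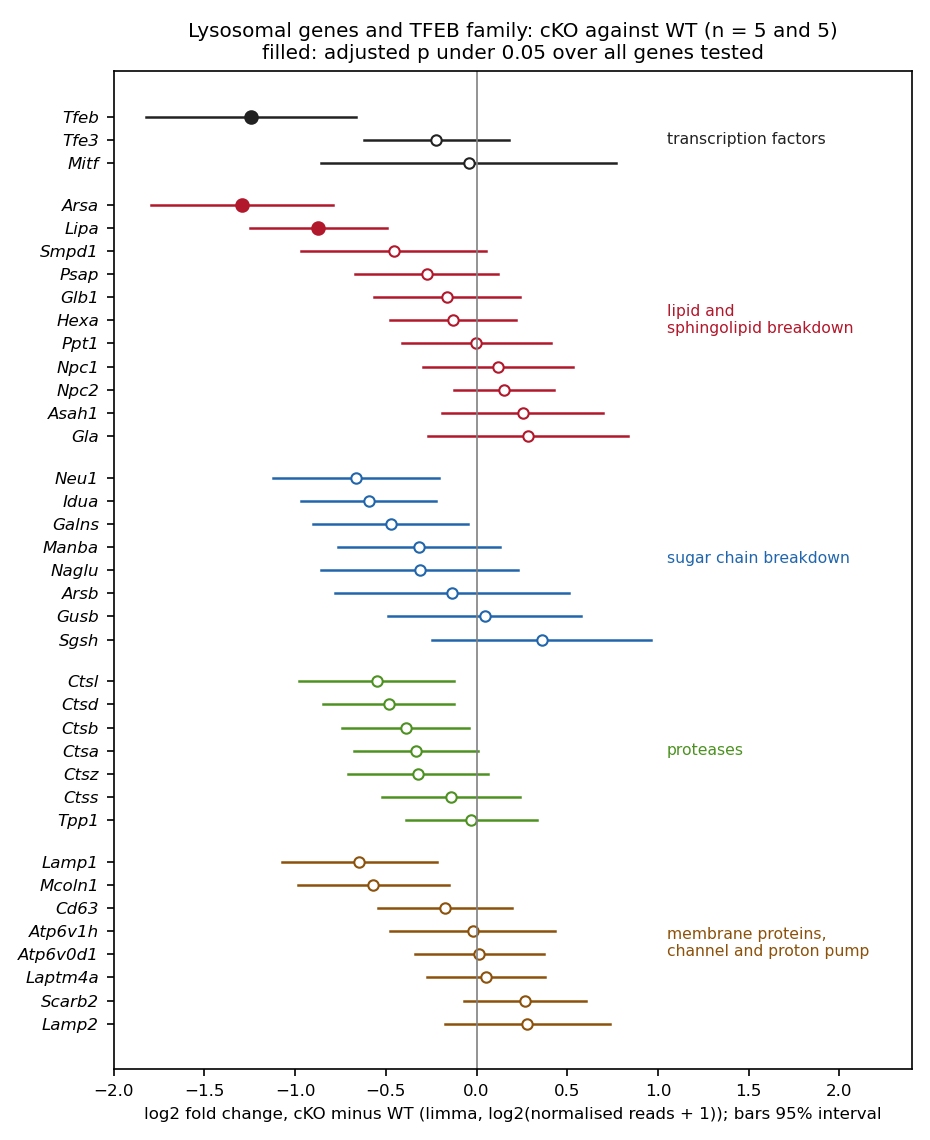
Difference between cKO and WT for the 37 members, grouped by role. Points are limma log2 differences and bars their 95% intervals; filled points mark Arsa, Lipa and Tfeb, the genes called by limma, and 27 of the 37 points lie below 0.

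Other tests named nearly the same genes. The authors' deposited table gives Arsa, Tfeb and Lipa an adjusted p of 0.00286, 0.00833 and 0.0281, with 2.49% of all its genes under 0.05. That deposit holds 2 further columns of per-sample values, and whether the authors' fit used them is not known here. Its log2 differences for these genes were -1.07, -1.02 and -0.68, against -1.25, -1.17 and -0.84 in DESeq2 on the 10 libraries. edgeR on the recovered reads called Arsa (adjusted p 0.0274) and Lipa (0.0320), with Tfeb at 0.0560, and called 1.11% of all genes. DESeq2 called Arsa, Lipa, Tfeb and Idua (adjusted p 0.000160, 0.000547, 0.00384 and 0.0404), and called 5.45% of all genes. Without cKO 3 and cKO 5, the libraries with low Per2, limma called 0 members and 0.398% of all genes. In that fit 4 of the 37 members and 1737 of the 14062 genes had an unadjusted limma p under 0.05. The edges of the limma call were Tfeb, with an adjusted p of 0.0384, and Idua, with 0.101.

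Tfeb encodes the factor after which the family is named. Its values were 184, 337, 300.1, 331 and 309.7 in WT 1, 3, 4, 5 and 6, and 91.6, 198, 78.5, 189 and 93.0 in cKO 1 to 5. The groups overlapped through WT 1, which lay below cKO 2 and cKO 4, and cKO 1, 3 and 5 were the lowest libraries, at 78.5 to 93.0. The mean was 292 ± 62.4 for WT and 130.0 ± 58.3 for cKO (SD, n = 5 each), a log2 difference of -1.24 ± 0.27 (SE; 95% interval -1.82 to -0.67; limma adjusted p 0.0384). The gene lies at 17:47737030-47792419 of mm10. The limma call held in 3 of the 10 fits that leave out 1 library. It was lost without WT 3 (adjusted p 0.109), WT 4 (0.102), WT 5 (0.0848), WT 6 (0.0907), cKO 1 (0.0763), cKO 3 (0.0933) or cKO 5 (0.0786). Without both cKO 3 and cKO 5 the difference was -0.92 with an adjusted p of 0.196.

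Tfe3 and Mitf, the other family members described here, were not called. Tfe3, which is activated in the same way as Tfeb, was at 519.6 ± 57.2 in WT and 457 ± 123 in cKO, with a difference of -0.22 (95% interval -0.62 to 0.18; limma adjusted p 0.549). Its cKO values were 301, 478, 379.7, 625 and 503, so cKO 4 was above every WT library (456 to 605) and cKO 1 and cKO 3 were below. Mitf, best known as the regulator of pigment and mast cells, was near the filter at 20.2 ± 3.78 in WT and 21.7 ± 9.91 in cKO, with values of 6.41 to 33.1 in cKO. Its interval of -0.86 to 0.77 allows a change of either sign. Mast cell markers summed to 78.9 to 129 in WT and 58.6 to 170.4 in cKO. Of the 8 measured markers in that sum 5 had a mean under 10, so it is a weak measure of these cells.

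Among the lipid-degrading members, Lipa encodes lysosomal acid lipase, which frees cholesterol and fatty acids from cholesteryl esters and triglycerides. Lipa read 2197, 1989, 1893, 1728 and 2005 in WT 1, 3, 4, 5 and 6, and 1157, 1198, 691, 1316 and 1105 in cKO 1 to 5. Every cKO library was below every WT library, and cKO 3 was the lowest. The means were 1962 ± 171 and 1093 ± 238 (SD, n = 5 each), a log2 difference of -0.87 ± 0.18 (SE; 95% interval -1.25 to -0.50; limma adjusted p 0.0307). The gene lies at 19:34492318-34527474 of mm10. Its call held in 4 of the 10 fits that leave out 1 library. It was lost without WT 1 (adjusted p 0.0727), WT 3 (0.0784), WT 4 (0.0779), WT 5 (0.0534), WT 6 (0.0748) or cKO 5 (0.0503). Without cKO 3 and cKO 5 the difference was -0.68 with an adjusted p of 0.0941.

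Arsa encodes arylsulfatase A, which removes the sulfate of sulfatide. Arsa read 264, 255, 359.6, 398 and 247 in WT, and 78.8, 186, 91.9, 149 and 131 in cKO, in the same order of libraries. The groups did not overlap, as the highest cKO library (cKO 2) was below the lowest WT library (WT 6). The means were 305 ± 69.3 and 127 ± 43.6 (SD, n = 5 each), a log2 difference of -1.29 ± 0.24 (SE; 95% interval -1.79 to -0.79; limma adjusted p 0.0196). Arsa lies at 15:89472476-89477425 of mm10. Its call held in 9 of the 10 fits that leave out 1 library and was lost without WT 4 (adjusted p 0.0656). Without cKO 3 and cKO 5 the difference was -1.19 with an adjusted p of 0.0886.

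**Figure D3:**
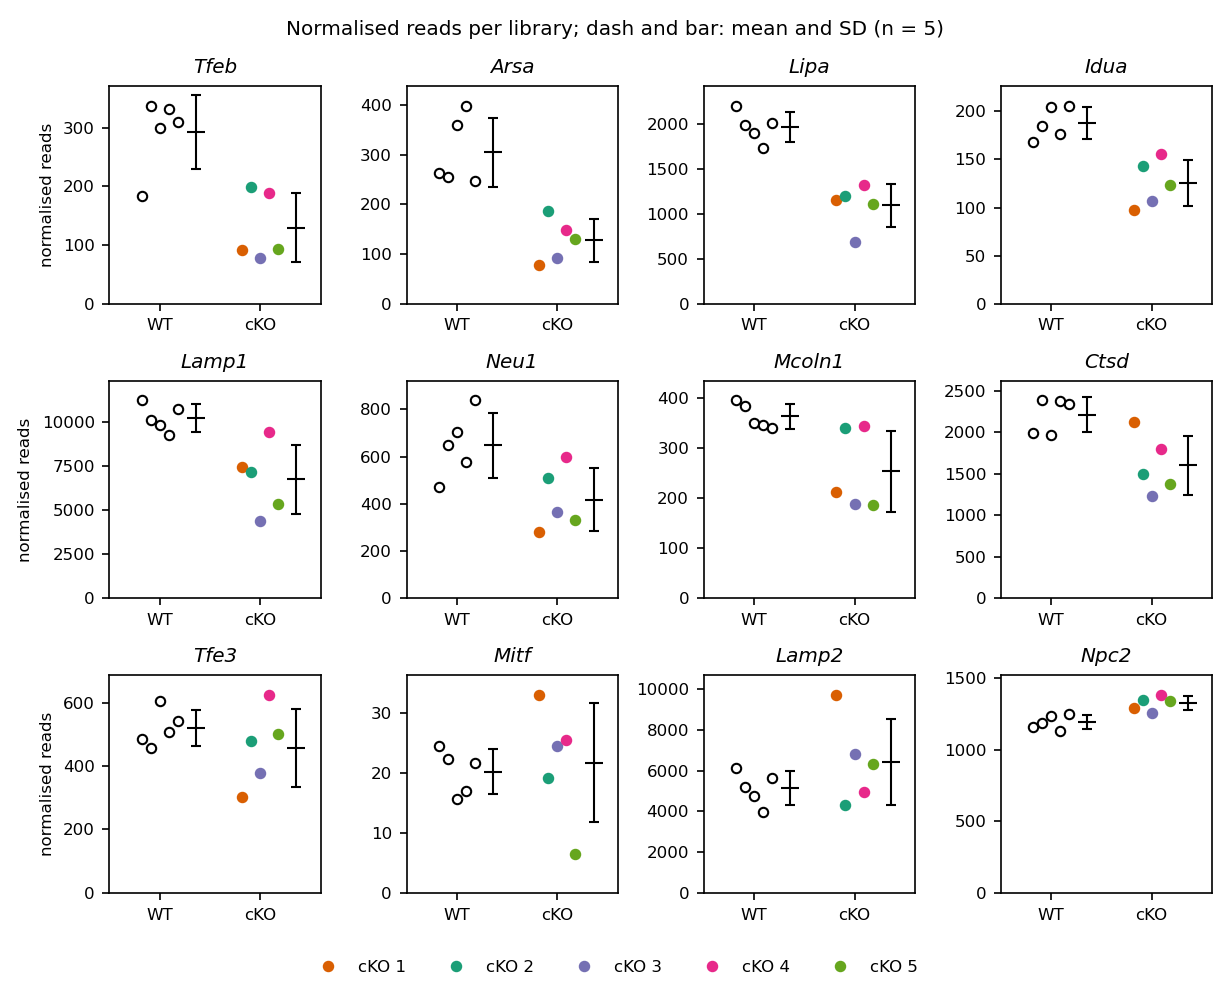
Normalised read counts of Tfeb, Arsa, Lipa, Idua, Lamp1, Neu1, Mcoln1, Ctsd, Tfe3, Mitf, Lamp2 and Npc2 in each library, WT (open) on the left and cKO (coloured) on the right of each panel. Points are libraries, and the dash and bar are the group mean and SD (n = 5 each); Arsa, Lipa, Idua and Npc2 show no overlap between the groups, and Tfeb overlaps through WT 1.

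The other 9 genes of lipid breakdown were not called by limma, and the median over all 11 was -0.13. Npc2, a small protein that hands cholesterol to the lysosomal membrane, read 1157, 1187, 1232, 1131 and 1244 in WT and 1291, 1344, 1256, 1381 and 1337 in cKO. Every cKO library was above every WT library, but the size was small, at 0.15 (95% interval -0.12 to 0.43; limma adjusted p 0.553). Its partner in cholesterol export, the membrane protein Npc1, was at 916 ± 138 in WT and 1016 ± 274 in cKO (adjusted p 0.782). Asah1, the acid ceramidase, read 1518 in cKO 1 and 632 to 873 in the other cKO libraries, with 594 to 811 in WT. Gla, the alpha-galactosidase that trims globosides, was at 74.1 ± 9.28 in WT and 95.8 ± 35.8 in cKO. Smpd1, the acid sphingomyelinase, was at 128 ± 24.4 in WT and 96.6 ± 31.6 in cKO (-0.46; limma adjusted p 0.321). For Psap, the precursor of the saposins that present sphingolipids to these enzymes, cKO 1 stood at 1480.2 and the other 4 cKO libraries at 2418 to 2859, against 2511 to 3126 in WT. Glb1 and Hexa, which trim gangliosides, had differences of -0.16 and -0.13, and Ppt1, which strips palmitate from proteins, had means of 928 ± 226 and 909 ± 137.

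No gene of sugar chain breakdown was called by limma or edgeR, 3 had an unadjusted limma p under 0.05, and 6 of the 8 had a lower fitted value in cKO, with a median of -0.31. Idua, the iduronidase of heparan and dermatan sulfate, read 168, 184, 205, 177 and 206 in WT and 97.9, 144, 107, 156 and 123 in cKO. Every cKO library was below every WT library, with a difference of -0.59 ± 0.18 (SE; limma adjusted p 0.101), and DESeq2 was the only one of the 3 tools that called it. Neu1, the sialidase that also takes part in the complex of Ctsa and Glb1, was at 648 ± 138 in WT and 418 ± 133 in cKO. Its difference of -0.66 (95% interval -1.12 to -0.20) had an adjusted p of 0.126, and cKO 2 and cKO 4 lay within the WT range of 469 to 838. Galns, a sulfatase of keratan sulfate, was at 368 ± 62.7 and 270.1 ± 72.2, with a difference of -0.47 (adjusted p 0.224). Manba and Naglu had differences of -0.32 and -0.31, Gusb 0.05 and Arsb -0.13. Sgsh, a sulfatase of heparan sulfate at 22.0 ± 3.23 in WT and 29.4 ± 9.16 in cKO, had the only other positive difference of this role besides Gusb, at 0.36 (adjusted p 0.517).

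All 7 proteases had a lower fitted value in cKO, with a median of -0.34. None was called by limma, edgeR or DESeq2, and 3 had an unadjusted limma p under 0.05. Ctsd, the main aspartic protease of lysosomes, read 1993, 2387, 1968, 2380.2 and 2341 in WT and 2122, 1498, 1238, 1802 and 1373 in cKO. Only cKO 1 lay within the WT range, and the difference was -0.48 (95% interval -0.84 to -0.12; limma adjusted p 0.150). Ctsl, a cysteine protease, was at 885 ± 151 in WT and 618 ± 167 in cKO, with a difference of -0.55 (95% interval -0.98 to -0.12; adjusted p 0.163) and its lowest value, 381, in cKO 5. Ctsb, the protease with the highest read count here, was at 8666 ± 467 and 6687 ± 1218, with a difference of -0.39 (adjusted p 0.222). In Ctsb only cKO 4, at 8311, reached the WT range of 8245 to 9329.7. Ctsa, which protects Neu1 and Glb1, was at 1679 ± 67.2 and 1352 ± 274 (adjusted p 0.280). Ctsz was at 3899 ± 524 and 3159 ± 756 (adjusted p 0.352), and Tpp1, a tripeptidyl peptidase, at 347 ± 58.6 and 341 ± 62.7. Ctss, which processes antigen in macrophages and dendritic cells, read 4187 in cKO 1 and 2372 to 2623 in the other 4 cKO libraries, against 2740.3 to 3552 in WT. Markers of macrophages and dendritic cells summed over 15 genes to 4348 to 7059 in WT and 4842 to 6924 in cKO, and limma called 0 of them, edgeR 0 and DESeq2 1, with 3 at an unadjusted limma p under 0.05.

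The membrane proteins were divided, with 4 below 0, 4 above and a median near 0. None was called by limma, edgeR or DESeq2, and 2 had an unadjusted limma p under 0.05. Lamp1, the most abundant glycoprotein of this role per kilobase, read 11216, 10085, 9814, 9237 and 10725 in WT and 7421, 7153, 4369, 9401 and 5360.4 in cKO. Only cKO 4 lay within the WT range, and the difference was -0.65 ± 0.20 (SE; 95% interval -1.07 to -0.22; limma adjusted p 0.114). Without cKO 4 limma called Lamp1 (adjusted p 0.0341), and without cKO 3 and cKO 5 its difference was -0.36 (0.404). Mcoln1, a calcium channel of the lysosome that takes part in the activation of TFEB, read 395, 383, 349.8, 346 and 340.0 in WT and 212, 339, 189, 343 and 185 in cKO. The cKO libraries fell into a lower set of 3 and a set of 2 (cKO 2 and cKO 4) at the WT level, with a difference of -0.57 over all 5 (adjusted p 0.145). Without cKO 3 and cKO 5 that difference was -0.31 (0.529).

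Lamp2, the close relative of Lamp1 that also serves chaperone-mediated autophagy, had a difference of the opposite sign, 0.28 (95% interval -0.17 to 0.74; limma adjusted p 0.501). Its values were 6128, 5198, 4749.7, 3962 and 5634 in WT and 9711, 4333, 6810.2, 4925 and 6335 in cKO, so 3 cKO libraries were above every WT library. Scarb2, an abundant glycoprotein of the lysosomal membrane, was at 379 ± 22.6 and 462 ± 92.2 (0.27; adjusted p 0.377). Cd63 was at 2406 ± 231 and 2168 ± 492, and Laptm4a at 3754 ± 359 and 3903 ± 445. The pump subunits Atp6v0d1 and Atp6v1h, parts of the vacuolar ATPase that acidifies the lysosome, had differences of 0.02 and -0.02, and Atp6v1h reached 2106 in cKO 1 against 906 to 1171 in the other cKO libraries.

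Over all 37 members, groups that did not overlap and were lower in cKO were those of Arsa, Lipa and Idua (8.11%, against 3.01% of all tested genes). Npc2 was the only one higher without overlap (2.70%, against 1.86%). The libraries differed in how many members lay outside the WT range. In cKO 1, 2, 3, 4 and 5, 19, 15, 23, 5 and 16 of the 37 members lay below the lowest WT value. As shares these were 51.4%, 40.5%, 62.2%, 13.5% and 43.2%, against 28.9%, 20.7%, 30.9%, 19.7% and 23.9% of all tested genes. Thus cKO 4 was the library nearest to WT, and its share was the only one under that of all genes. Above the highest WT value lay 11, 4, 7, 6 and 7 members. These were 29.7%, 10.8%, 18.9%, 16.2% and 18.9%, against 29.9%, 20.0%, 29.3%, 20.7% and 24.1% of all tested genes. The median member difference from the WT mean was -0.23, -0.25, -0.42, -0.059 and -0.22 in cKO 1 to 5, and ran from -0.064 to 0.074 in the WT libraries.

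**Figure D4:**
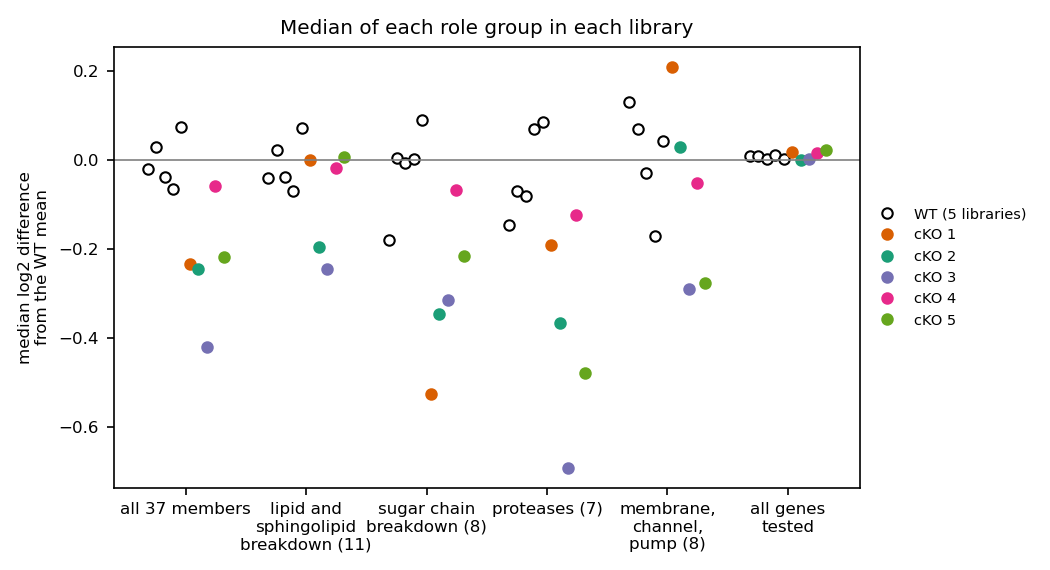
Median log2 difference from the WT mean in each library, for all 37 members, for 4 of the roles and for all tested genes. Open points are WT and coloured points cKO libraries; the members' medians run from -0.42 in cKO 3 to -0.059 in cKO 4, and those of all genes stay near 0.

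The roles took different shares of this. For the proteases the medians in cKO 1 to 5 were -0.19, -0.37, -0.69, -0.12 and -0.48, below 0 in each. For sugar chain breakdown they were -0.53, -0.35, -0.32, -0.068 and -0.22, also below 0 in each. For lipid and sphingolipid breakdown they were -0.00065, -0.20, -0.25, -0.018 and 0.0073, with cKO 2 and cKO 3 the lowest. The membrane proteins were at 0.21 and 0.028 in cKO 1 and cKO 2 and at -0.29, -0.053 and -0.28 in the others. In cKO 1 the deviation of a gene ran with the GC content of its longest transcript, with a Pearson r of -0.70 across the 37 members and -0.42 across all genes, so members rich in GC were low there. In cKO 3 the same r was -0.38 over the members and -0.22 over all genes, and in WT 1 it was -0.35 over both. In the other 7 libraries it lay between -0.18 and 0.26 over the members. The members' GC content ran from 37.6% to 63.2%, with a median of 51.3% against 49.6% over all genes, and the highest was that of Tfeb. Genes of a library are not independent replicates, and the part of GC content in the differences was not tested.

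The marker sums of some other cell populations differed between the groups. Markers of the villus tip, the oldest enterocytes, summed over 7 genes to 247578 to 307275 in WT and 99538 to 208269 in cKO, without overlap. The most abundant genes weigh most in such a sum, and Apoa4 counts both here and among the absorptive enterocyte markers. Of the 7 villus tip markers 5 were below 0 and 2 above (median -0.63). Limma called 0 of them singly, edgeR 0 and DESeq2 2, with 4 at an unadjusted limma p under 0.05. Fibroblast markers summed to 5197 to 6736 in WT and 6813 to 10774 in cKO, with Col3a1 (0.75, limma adjusted p 0.0357) and Col1a1 (1.02, 0.0426) called higher. The call of Col3a1 was lost without WT 1, 3, 4 or 5 or cKO 3 (adjusted p up to 0.106), and that of Col1a1 without WT 1, 3, 4 or 5, cKO 3 or cKO 5 (up to 0.120). Without cKO 3 and cKO 5 together neither was called (0.110 and 0.193), and edgeR called Col3a1 alone. Endothelial markers summed to 439 to 579.6 in WT and 897 to 1703 in cKO, with Lyve1 called higher (1.63, 0.00272), also without any single library. For absorptive enterocytes the summed levels overlapped, and 10 of the 12 markers were below 0 with a median of -0.41. Limma and edgeR called 0 of these and DESeq2 2, with 6 at an unadjusted limma p under 0.05. Of the 10 markers of proliferating crypt cells 9 were above 0 (median 0.46), with 4 at an unadjusted p under 0.05, 0 called by limma and edgeR and 1 by DESeq2. Of the 6 tested tuft cell markers 5 were below 0 (median -0.52), with 3 at an unadjusted p under 0.05, 0 called by limma and edgeR and 2 by DESeq2. The summed levels of the groups overlapped for markers of proliferating crypt cells (2055 to 2979 in WT, 1915 to 4953 in cKO), goblet cells (80460 to 140172 and 66174 to 137973), Paneth cells (3174 to 19666 and 3592 to 27610.5) and tuft cells (491 to 1110 and 530 to 1496). They also overlapped for smooth muscle (31070 to 52923 in WT, 27186 to 67076 in cKO), T cells (9910 to 11111 and 9518 to 17293) and B and plasma cells (15445 to 28554 and 10333 to 42185). Below 0 were 6 of 7 goblet cell markers (median -0.15) and 4 of 6 of B and plasma cells (-0.75). Above 0 were 5 of 8 Paneth cell markers (0.60), 7 of 7 of smooth muscle (0.16) and 6 of 8 of T cells (0.071). Limma, edgeR and DESeq2 called 0 of the goblet, Paneth, smooth muscle, T, B and plasma cell markers. No marker was at 0 in all libraries, and the part of these cells in the members' differences was not tested. The 16 tested clock genes had a median difference of -0.92, or -0.16 without cKO 3 and cKO 5, and limma, edgeR and DESeq2 called 0 of them, with 3 at an unadjusted limma p under 0.05.

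Around the 37 members stand lysosomal and autophagy genes from lists that were drawn up by function. Of 37 other tested hydrolases limma called 0, edgeR 0 and DESeq2 4, 8 had an unadjusted p under 0.05, and the median was -0.14 with 25 below 0. Ctso, a cysteine protease of that list, was at 709 ± 74.5 in WT and 449 ± 101 in cKO, with a difference of -0.68 and a limma adjusted p of 0.0575.

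Of the 17 other tested subunits of the vacuolar ATPase limma called 1, Atp6v0a1, edgeR 0 and DESeq2 2, and 3 had an unadjusted limma p under 0.05. Its level was 833 ± 82.5 in WT and 474 ± 125 in cKO, a 1.80-fold fall without overlap (-0.85 ± 0.19, SE; limma adjusted p 0.0381), while the median of the list was -0.027. That call held in 4 of the 10 fits that leave out 1 library, those without cKO 1, 2, 4 or 5, and the adjusted p was 0.113 without cKO 3 and cKO 5. Without any of the 5 WT libraries or cKO 3 the call was lost, with an adjusted p of up to 0.0960.

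Of 21 other lysosomal membrane proteins limma called 0, edgeR 0 and DESeq2 1, 5 had an unadjusted p under 0.05, and 16 were below 0 (median -0.13). Laptm4b (-0.74; limma adjusted p 0.0897) and Abcb9, a peptide transporter (-0.59; 0.154), had the smallest p. For the 15 genes that sort enzymes to the lysosome the median was 0.053, with 6 below 0. Limma, edgeR and DESeq2 called 0 of them and 0 had an unadjusted p under 0.05. The smallest p there belonged to Cln8 (-0.43; adjusted p 0.375) and Vps29 (0.30; 0.379).

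Tfec, a further gene of the TFEB family, was placed in the list of genes that control TFEB through mTORC1. Of the 18 tested genes of that list, again 0 were called by limma, edgeR or DESeq2. An unadjusted limma p under 0.05 went to 0 of them, and the median was -0.059. Fnip1, a partner of folliculin, had a difference of -0.51 (limma adjusted p 0.349), and Rraga, a Rag GTPase that brings TFEB and mTORC1 to the lysosome, -0.26 (0.373). Of 36 autophagy genes limma called 0, edgeR 0 and DESeq2 1, 9 had an unadjusted p under 0.05, and 26 were below 0 (median -0.17, or -0.074 without cKO 3 and cKO 5). Rubcn, an inhibitor of autophagosome maturation, had a difference of -0.63 (limma adjusted p 0.103), and Epg5, which tethers autophagosomes to lysosomes, -0.58 (0.150).

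Among genes of these lists with a promoter window, TCACGTG was present in 6 of 11 sorting genes (54.5%). It was in 6 of 19 genes of the list on control of TFEB through mTORC1 (31.6%) and 4 of 19 other membrane proteins (21.1%). The counts were 3 of 18 for the other pump subunits (16.7%), 4 of 30 for the autophagy genes (13.3%) and 3 of 25 for the other hydrolases (12.0%). The share over all tested genes was 6.77%.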

How the data were processed

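RNA-seq of 10 mouse jejunum libraries, 1 per mouse, was analysed, and replicates are separate mice per the labels. Per the submitters' processing notes the tools were CASAVA, HISAT2 2.0.5, featureCounts 1.5.0-p3 and DESeq2 1.20.0 with mm10. The sources used here name no strand setting, annotation release or handling of multiply matching reads. Reads of overlapping genes or close copies may therefore be shared. The deposited values are a normalised signal, reads divided by 1 size factor per library, as read from the values. Dividing by the smallest step of each library gave whole reads within 0.001 for 100% of values. The authors' deposited log2 fold change, p-value and adjusted p-value were used for comparison only. A further 2 columns of per-sample values match no label and were not used.

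Values were taken as log2(value + 1), and genes with a mean of 10 or more (14062 of 24368) were fitted on genotype with limma 3.58.1 in R 4.3.3, with an intensity trend and robust moderation. This scale understates changes of low genes. Two-sided p-values were adjusted over all 14062 genes by the Benjamini-Hochberg method, with a threshold of 0.05, and intervals are at 95%. Alternatives were edgeR 4.0.16 and DESeq2 1.42.0 on recovered reads, other pseudocounts, filters and scalings, plain moderation, a replicate block, and fits without single libraries or without cKO 3 and cKO 5. GC content is that of the longest GENCODE M21 transcript, found for all 37 members. Within groups no pair of libraries was a near copy, with a chi-square per degree of freedom of at least 21.4 between their reads.

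The members and all gene lists were chosen with earlier results of these data known. Named genes are all 37 members, and from each pathway list up to 4 called genes or otherwise the 2 with the smallest p, and up to 2 called genes per marker list. A gene that this rule picked is not reported here. No set test was run.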

Additional observations from a re-analysis of the deposited data

Results flagged for a closer look

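In 4 of the 74 groups of 5 values (37 members in WT and in cKO), 1 library lay far from the rest by Dixon's criterion at 95%, and chance alone would give about 1 in 20. Tfeb was lowest in WT 1, at 184, with the other 4 WT libraries at 300.1 to 337. The remaining 3 concern cKO 1 as the highest of its group. Asah1 was at 1518 there, Ctss at 4187 and Atp6v1h at 2106. In the same library mitochondrial genes took 9.48% of the normalised reads and member deviations ran with GC content (r = -0.70 across the 37 members), and the part of either in these 3 values was not tested.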

How the results depend on the processing

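Of the 37 members, 28 kept the sign of their difference in every alternative that gave a value (22 alternatives, with the filter at a mean of 50 leaving out Sgsh, Arsb and Mitf), and 9 changed it at least once. Arsa was called in 19 of the 22, Lipa in 12, Tfeb in 11, Idua in 2 and Lamp1 and Neu1 in 1 each, and 31 members were called in none. The number of members called was 3, and 0 with plain moderation (no trend, not robust; 11 at an unadjusted p under 0.05), 0 without cKO 3 and cKO 5, and from 0 (without WT 4; 10 at an unadjusted p under 0.05) to 6 (without cKO 4) when 1 library was left out. Over all genes, limma called 186, DESeq2 750, plain moderation 42, the fit without cKO 3 and cKO 5 56, and the fits without 1 library 30 (without WT 4) to 611 (without cKO 4). An unadjusted limma p under 0.05 went to 2495 of the 14062 genes with plain moderation and to 2095 without WT 4. The members' median of -0.17 was -0.076 with library totals, which moved the median of all genes to 0.11, and -0.27 to -0.16 without 1 library. Counting TCACGTGA in place of TCACGTG lowered the number of member promoters from 10 to 5.

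The sign changes were these. Library totals gave Tpp1 0.070, Mitf 0.048, Atp6v1h 0.078 and Ppt1 0.098. Without cKO 3 and cKO 5, Cd63 was at 0.042, Tpp1 at 0.022, Mitf at 0.33, Atp6v1h at 0.22 and Ppt1 at 0.061. Mitf was at 0.011 with a pseudocount of 10, 0.094 in edgeR and 0.092 in DESeq2, Atp6v1h at 0.034 in both of these tools, and Ppt1 at 0.0062 with TMM factors. Without 1 library, the differences ran from -0.27 to 0.016 for Arsb, -0.0042 to 0.12 for Laptm4a, -0.15 to 0.23 for Gusb, -0.13 to 0.053 for Tpp1, -0.23 to 0.32 for Mitf, -0.22 to 0.082 for Atp6v1h, -0.073 to 0.11 for Atp6v0d1 and -0.17 to 0.081 for Ppt1. The causes were not tested.

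In the labels, same-numbered libraries (1, 3, 4 and 5) share only a number. Their deviations correlated at 0.12, 0.022, -0.11 and 0.096 across genes, and those of differently numbered WT and cKO libraries at -0.23 to 0.26. Whether the same-numbered libraries shared a litter or batch was not tested. With the replicate block over these 8 libraries limma called 134 genes and 2 members, and 89 genes and 2 members without it. With and without the block alike, Arsb was at 0.065, Tpp1 at 0.015, Atp6v1h at 0.0062, Atp6v0d1 at -0.046 and Ppt1 at 0.14. With 5 libraries a group, the members' 95% intervals reached a median of 0.42 on either side. These intervals are not adjusted for the number of genes, and some larger differences also went uncalled, such as that of Neu1 at -0.66. Among the members the smallest difference called by limma was that of Lipa, at -0.87.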
